A study of Mus musculus with 30 samples.

Results

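The comparison described here is between digit tips collected 24 h and 12 h after amputation, the later hours of the first day of healing. It takes every library whose label gives one of these times, 3 at 24 h and 3 at 12 h, which is 6 of the 30 libraries of the series, and all 13793 genes with enough counts to be tested. Each library is the RNA of the distal phalanx (P3) of hindlimb digit 3 of 1 mouse. The mice were adult male C57Bl/6 of 9 to 10 weeks, with no transgene or drug in any group. Both groups had at most 33% of the P3 removed, the skin wound was not sutured, and the tissue went into RNAlater at collection. The right foot was used in all 6. Mice at 0 h (n = 3), from the same series, serve below as a level only and enter no test. RNA with a poly(A) tail was sequenced, and the values are expected read counts per gene, given here as counts scaled to library size (CPM). CPM are not divided by transcript length, so levels are compared between mice and not between genes.

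In a skin or bone wound the first blood cells to arrive in number are neutrophils. They leave the vessel where the endothelium shows selectins and ICAM-1, and they follow chemokines such as CXCL1 and CXCL2 that bind the receptor CXCR2. Monocytes follow and become macrophages, which remove the dead cells and later release factors for repair. In the same hours keratinocytes at the wound edge change shape and move, and the basal cells behind them, like the cells of the nail matrix, go on dividing to supply new cells. Passage through the cell cycle needs genes of DNA synthesis in S phase and, later, kinesins, cyclins and kinases of mitosis.

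All 3 libraries at 12 h carry a date of July 20. At 24 h, 2 carry August 13 and 1 carries December 3, so the date and the time point cannot be told apart. Total expected counts of the 6 libraries ran from 4843416 to 6776238, and 13517 to 14307 genes had a count. The December library stood apart from the others. Genes of cytosolic ribosomal proteins took 8.49% of its counts, against 4.08% to 4.62% in the other 5 libraries and 3.70% to 5.66% in all other 29 of the series. Its chi-square per degree of freedom against the August libraries was 44.0 and 46.8, while the other pairs within a time point had 12.1 to 17.7. It was also high in genes with short transcripts. When the genes tested were put into 5 equal bins by their longest annotated transcript, the median log2 difference between the December library and the 2 August libraries was 0.39 in the bin of shortest transcripts (204 to 1712 bases) and -0.25 in the longest (4934 bases and more). In the comparison of 24 h with 12 h the median log2 fold change was 0.17 in the shortest bin, and -0.01 without the December library. Most fold changes and list medians below are therefore also given without that library, and where 3 values are given for 24 h the December mouse is the last. The part of the library in a result was not otherwise tested.

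**Figure D1:**
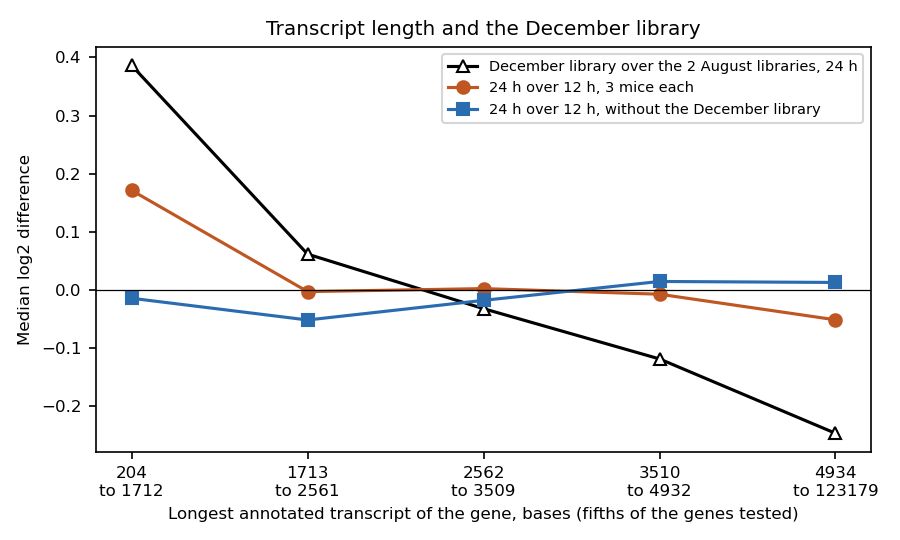
Median log2 difference (y axis) in 5 equal bins of the genes tested, ordered by the longest annotated transcript in bases (x axis). The December library (open triangles) falls from 0.39 to -0.25 against the August libraries of 24 h. The comparison of 24 h with 12 h (filled circles) is at 0.17 in the shortest bin and near 0 elsewhere, and without the December library (squares) it lies between -0.05 and 0.01.

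The labelled tissue was checked against markers. Keratinocyte genes such as Krt14 (4328 to 6065 CPM over the 6 mice) and nail keratins such as Krt83 (1224 to 3611 CPM) were abundant. Markers of bone were also present, with Ibsp, a matrix protein of osteoblasts, at 104 to 162 CPM. Lymphocyte markers were close to 0, with a summed level of the 3 T cell markers tested of at most 2.96 CPM. The skeletal muscle markers summed to at most 10.8 CPM. The neutrophil list rests on few counts as well, as given below. The tissue is a bulk sample, in which fewer cells of a type and less RNA per cell cannot be told apart.

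No gene passed an adjusted p of 0.05 between 24 h and 12 h in the quasi-likelihood test of edgeR (p adjusted by Benjamini-Hochberg), that is 0% of the genes tested. The lowest adjusted p was 0.18. At an unadjusted p under 0.05 there were 1068 genes, of which 578 were higher at 24 h (4.19%) and 490 lower (3.55%). DESeq2's test called 26 genes at the same adjusted threshold, 12 higher and 14 lower, a fit of only these 6 mice called 4, and limma on log2(TPM + 1) called 1. Without the December library edgeR called 0, and 752 genes had an unadjusted p under 0.05. The genes and groups that follow are therefore described by their values, and for none of them did the main test call a change. The count used most below is how many genes had all 3 mice at 24 h on the same side of all 3 mice at 12 h. Over all genes tested this held for 866 genes above (6.28%) and 940 below (6.82%). For the 2 August mice against the 3 mice at 12 h, it held for 12.4% above and 12.2% below. Every count for a gene list is to be read against these shares. The median log2 fold change of all genes tested was 0.01, but it was -0.20 in limma on log2(TPM + 1), and medians on that scale are to be read from there.

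The genes of neutrophil attraction were higher at 24 h than at 12 h in all mice for 3 of the 6 members tested. Cxcl2, a ligand of CXCR2, had 3.17, 7.43 and 11.7 CPM at 12 h and 35.7, 22.0 and 67.8 CPM at 24 h. Each mouse at 24 h was above each at 12 h, and the 0 h mice were at 0.96 CPM or less. Its log2 fold change was 2.5 ± 0.95 (SE, unadjusted p = 0.014, adjusted p = 0.48) and 1.97 without the December library. Cxcl1 had 38.6, 88.8 and 60.3 CPM at 12 h and 89.7, 138 and 122 CPM at 24 h, a log2 fold change of 0.90 ± 0.79 (SE, adjusted p = 0.86), or 0.86 without the December mouse. The lowest mouse at 24 h was barely above the highest at 12 h. Cxcl5, a ligand of the same receptor, had 4.00 to 8.88 CPM at 12 h and 12.5 to 16.6 CPM at 24 h, without overlap. Cxcr2 itself overlapped between the groups, with 9.06 to 22.5 CPM at 12 h and 15.6 to 37.6 CPM at 24 h. The median log2 fold change of the list was 0.78, and 0.51 without the December library, in which case 3 of 6 genes still had both mice above. Of the 10 monocyte chemokine genes, 0 were without overlap in either direction, and 7 had a positive and 3 a negative log2 fold change. Their median of 0.51 was 0.22 without the December library. The summed level of the list was 69.5, 74.1 and 80.2 CPM at 12 h and 81.5, 94.4 and 106 CPM at 24 h. These sums did not overlap. Among the monocyte chemokines, Ccl7 had 4.98 to 9.65 CPM at 12 h and 5.30 to 16.8 CPM at 24 h. Whether the neutrophil and monocyte lists differ was not tested.

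The promoters of several of these genes hold the letters GGGNNNTTCC, a core of the sites known for NF-kB. Those shown belong to genes that were high together at 24 h and that hold the motif. Windows were also sought for Sele and Icam1, which are described below, and none holding the motif was found. Promoters are those of RefSeq on GRCm38.p6, read over the 250 bases before the start on both strands, where 1 stretch can match on both. Of the 6 neutrophil chemokine genes tested, 5 had a promoter in the table and 3 held the motif, against 6.17% of the 10365 genes tested that had a promoter there. For the cytokine list it was 2 of 9, and for the list of inflammation brakes 5 of 17. The capitals mark the match, and each window of 100 bases ends before the start:
Cxcl1 (chr5:90891105-90891204, plus strand): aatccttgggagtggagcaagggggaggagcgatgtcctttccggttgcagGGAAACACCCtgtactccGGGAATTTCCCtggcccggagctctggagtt
Cxcl2 (chr5:90903751-90903850, plus strand): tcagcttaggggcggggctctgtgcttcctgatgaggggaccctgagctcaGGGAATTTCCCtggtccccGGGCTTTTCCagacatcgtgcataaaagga
Il6 (chr5:30013000-30013099, plus strand): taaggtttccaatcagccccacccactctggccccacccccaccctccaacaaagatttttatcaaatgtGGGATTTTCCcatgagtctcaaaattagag
Nfkbia (chr12:55492648-55492747, minus strand): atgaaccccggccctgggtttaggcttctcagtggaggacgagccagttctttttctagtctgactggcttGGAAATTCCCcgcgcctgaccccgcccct

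A match says only that the letters are in the window. Il6 had 7.99, 17.9 and 24.7 CPM at 12 h and 37.8, 56.0 and 46.5 CPM at 24 h, and at most 0.08 CPM at 0 h. Interleukin 6 signals through gp130 to start the acute phase of inflammation. All 3 mice at 24 h were above all at 12 h, with a log2 fold change of 1.47 ± 0.77 (SE, adjusted p = 0.69) and 1.48 without the December library. Lif, another cytokine that acts through gp130, had 31.8, 66.9 and 64.6 CPM at 12 h and 179, 185 and 79.7 CPM at 24 h. The December mouse was the lowest at 24 h, though still above 12 h. The log2 fold change was 1.44 ± 0.47 (SE, unadjusted p = 0.0045, adjusted p = 0.42) and 1.74 without that mouse. Il11, the third gp130 cytokine that did not overlap, had 4.00, 7.07 and 12.7 CPM at 12 h and 20.7, 21.6 and 27.6 CPM at 24 h. These 3 were the non-overlapping genes of the 12 proinflammatory cytokines tested, and 0 were lower without overlap. Csf1, which keeps macrophages alive, overlapped, with 37.4 to 56.2 CPM at 12 h and 42.5 to 55.3 CPM at 24 h. Il33, an alarm signal held in the nucleus of epithelial cells, did too, with 25.7 to 40.7 and 24.8 to 33.6 CPM. The list median was 0.46, and 0.55 without the December library. Under a stricter filter on low counts it was 0.05. Among the 23 cytokine receptors, 3 were higher without overlap. They were Il13ra1, Tnfrsf1a and Il4ra, the last a chain of the receptor for interleukin 4, with log2 fold changes of 0.51, 0.42 and 0.34, or 0.46, 0.32 and 0.36 without the December library. In that case 10 receptors were above and 1 below, and the list median was 0.25 in place of 0.03. Il6st, which encodes gp130, overlapped between the groups (172 to 303 CPM at 24 h, 215 to 272 at 12 h).

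Among adhesion genes of vessels and leukocytes, both selectins and Icam1 did not overlap and were higher at 24 h. The vessel gene Vcam1 and the leukocyte genes Selplg and Itgb2 overlapped. Sele, which encodes E-selectin of inflamed endothelium, had 26.1, 27.6 and 30.1 CPM at 12 h and 60.9, 91.1 and 46.0 CPM at 24 h, with a log2 fold change of 1.25 ± 0.45 (SE, unadjusted p = 0.0094, adjusted p = 0.46), or 1.45 without the December mouse. Selp, which encodes P-selectin of platelets and endothelium, had 12.3, 15.2 and 26.6 CPM at 12 h and 55.4, 59.0 and 27.6 CPM at 24 h. Its December mouse was near the highest mouse at 12 h, and the log2 fold change was 1.40, or 1.67 without it. Icam1, the endothelial ligand of neutrophil integrins and a gene chosen after its values were seen, had 12.3, 11.1 and 21.0 CPM at 12 h and 30.7, 35.8 and 45.8 CPM at 24 h. Pecam1, a junction protein of all vessels, had 39.8 to 73.8 CPM at 12 h and 38.6 to 67.6 CPM at 24 h, and Cdh5 had 24.9 to 33.2 and 18.7 to 41.7 CPM, so both overlapped. Of the 14 endothelial markers, 3 did not overlap and were higher, the selectins and Egfl7, and the list median was 0.04, or 0.15 without the December library. In that case 6 of the 14 were above and 0 below. The summed level of the list was 249, 366 and 322 CPM at 12 h and 428, 462 and 281 CPM at 24 h, so that both August mice were above the 12 h mice and the December mouse was among them. The part of this level in the values of the selectins was not tested. Vcam1, Selplg, a ligand of P-selectin, and Itgb2, the beta chain of leukocyte integrins, were also chosen after their values were seen. They had log2 fold changes of -0.11, 0.18 and -0.34, and of 0.15, -0.58 and -0.14 without the December library. Ptgs2, the inducible enzyme of prostaglandin synthesis, had 108, 187 and 164 CPM at 12 h and 542, 409 and 320 CPM at 24 h. It did not overlap, and its log2 fold change was 1.47 ± 0.83 (SE, adjusted p = 0.73), or 1.64 without the December library.

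**Figure D2:**
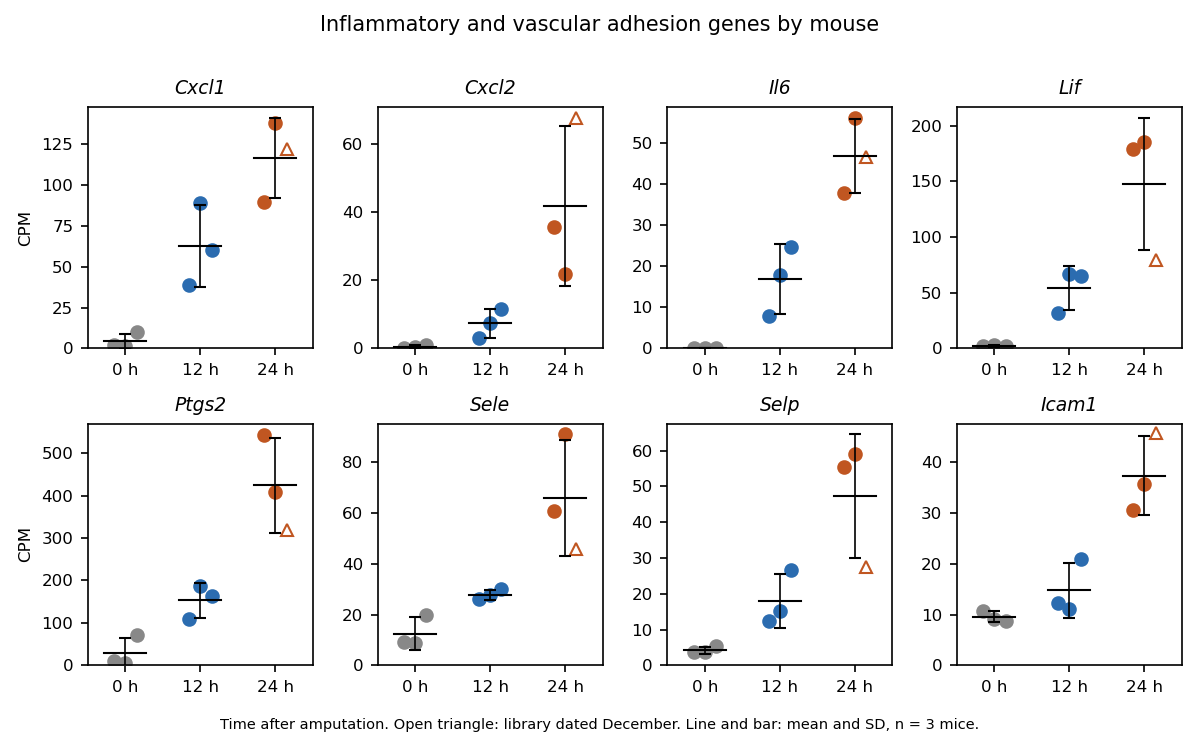
CPM of 8 inflammatory and adhesion genes (y axes, from 0) in each mouse at 0 h, 12 h and 24 h (x axes). Points are mice, the open triangle is the December library, and lines and bars are the mean and SD of 3 mice. In all 8 panels each mouse at 24 h lies above each at 12 h, and for Lif, Sele, Selp and Ptgs2 the December library is the lowest of 24 h. These 8 genes were chosen, and many other members of the lists they come from overlapped, so the separation does not describe the lists.

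Genes carried by neutrophils themselves were low throughout. S100a9, a calcium-binding protein that neutrophils hold in bulk, had 10.6, 3.81 and 12.7 CPM at 12 h and 17.9, 14.1 and 63.6 CPM at 24 h, against 0.80 CPM or less at 0 h. The groups did not overlap, and the December mouse was far above the other mice. The log2 fold change of 1.79 ± 0.78 (SE, adjusted p = 0.56) was 0.82 without it. Clec4d, a C-type lectin receptor of myeloid cells, depended on the same mouse, with 9.19, 4.39 and 46.5 CPM at 24 h and 3.63 to 9.27 CPM at 12 h. BC100530, a stefin of neutrophils that has near-identical copies between which reads can be split, had 14.3, 23.4 and 14.8 CPM at 12 h and 44.4, 28.1 and 92.8 CPM at 24 h. Il1r2, the decoy receptor that binds interleukin 1 without signalling, had 11.2 to 12.5 CPM at 12 h and 16.0 to 32.7 CPM at 24 h. Mmp9, the gelatinase of neutrophils and keratinocytes, overlapped, with 9.79 to 29.7 and 19.1 to 42.4 CPM. Of 21 neutrophil genes tested, 5 were higher without overlap and 0 lower. The summed level of the list was 88.8, 127 and 167 CPM at 12 h and 210, 166 and 362 CPM at 24 h. The lowest mouse at 24 h was just under the highest at 12 h. The list median was 0.67, and 0.44 without the December library.

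Macrophage genes gave no such count. Of 23 monocyte and macrophage genes, 2 were higher and 1 lower without overlap. The median was -0.11, and -0.10 without the December library. Lyz2, lysozyme of myeloid cells, had 51.0 to 80.4 CPM at 12 h and 53.6 to 78.6 CPM at 24 h. Cd14, a receptor for bacterial lipopolysaccharide, did not overlap, with 4.71 to 7.44 and 11.7 to 15.2 CPM. Of the 20 macrophage repair genes tested, 12 had a positive and 8 a negative log2 fold change, and 2 were lower without overlap, beside 6.82% of all genes. Cd163, a scavenger receptor that takes up haemoglobin bound to haptoglobin, had 60.5, 35.0 and 30.4 CPM at 12 h and 17.4, 12.4 and 20.3 CPM at 24 h, a log2 fold change of -1.33 ± 0.57 (SE, adjusted p = 0.55), or -1.49 without the December mouse. Stab1, which clears waste from tissue fluid, had 66.0, 45.1 and 60.3 CPM at 12 h and 44.4, 22.4 and 44.2 CPM at 24 h. These were the 2 lower genes, and 0 were higher without overlap. The list median was 0.02, beside 0.01 for all genes, and -0.01 without the December library. Spp1, which encodes osteopontin, had 138 to 273 CPM at 12 h and 125 to 330 CPM at 24 h.

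Genes that restrain inflammation stood higher at 24 h in 6 of 19 members and lower in 2. Nfkbia, the inhibitor that NF-kB induces against itself, had 49.6, 55.1 and 58.2 CPM at 12 h and 80.1, 71.0 and 141 CPM at 24 h, a log2 fold change of 0.84 ± 0.29 (SE, unadjusted p = 0.007, adjusted p = 0.44), or 0.48 without the December library. Socs3, the feedback inhibitor of gp130 signalling, had 34.2, 52.9 and 56.5 CPM at 12 h and 82.9, 100.4 and 78.1 CPM at 24 h. Dusp1, a phosphatase that switches off p38 and JNK, had 27.7, 50.6 and 26.3 CPM at 12 h and 53.3, 63.4 and 86.9 CPM at 24 h. In the 0 h mice it was higher than in either group (111 to 182 CPM). Tnfaip6, which binds hyaluronan in inflamed matrix, had 7.90 to 19.4 CPM at 12 h and 25.2 to 31.1 CPM at 24 h. The members that did not overlap on the lower side were Nfkbiz and Bcl3, both nuclear partners of NF-kB, with log2 fold changes of -0.23 and -0.55, or -0.18 and -0.46 without the December library. The most abundant member, Anxa1, had 1499 to 1827 CPM at 12 h and 1565 to 1709 CPM at 24 h. The median of the list was 0.13, and 0.11 without the December library.

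Matrix enzymes were already high at 12 h. Mmp3, which cleaves matrix and activates other proteases, had 258, 450 and 692 CPM at 12 h and 870, 797 and 760 CPM at 24 h, above 12 h in every mouse, with 7.57 to 9.68 CPM at 0 h. The log2 fold change of the gene was 0.79 ± 0.66 (SE, adjusted p = 0.85), or 0.84 without the December mouse. Timp1, an inhibitor of these enzymes, had 12.0, 32.8 and 32.8 CPM at 12 h and 43.5 to 46.9 CPM at 24 h. The 3 mice at 24 h lay close together while those at 12 h were spread. Of the 24 proteases and inhibitors, 3 were higher and 2 lower without overlap. Without the December library the counts were 10 higher and 2 lower, for 12.4% and 12.2% over all genes. Pdpn, which encodes podoplanin of migrating keratinocytes and lymphatic vessels and was chosen after its values were seen, had 10.6, 18.5 and 16.0 CPM at 12 h and 42.5, 43.0 and 27.1 CPM at 24 h. Its adjusted p was 0.28 in edgeR and 0.050 in DESeq2.

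Mitosis genes were lower at 24 h. Of the 28 tested, 14 had all 3 mice at 24 h below all 3 at 12 h, 0 had them above, and 27 had a negative log2 fold change. Without the December library 15 of the 28 had both mice below. The summed level of the list was 1084, 1081 and 1013 CPM at 12 h and 863, 703 and 539 CPM at 24 h, while at 0 h it was 1274 to 1348 CPM. The December mouse was the lowest, and the August mice were below every mouse at 12 h as well. Kif23, a kinesin of the spindle midzone that is needed to part the daughter cells, had 35.3, 39.5 and 29.5 CPM at 12 h and 17.3, 19.0 and 13.1 CPM at 24 h. In the fit it had a log2 fold change of -1.07 ± 0.25 (SE, unadjusted p = 0.00016, adjusted p = 0.20) and -0.94 without the December library. It was the member with the lowest p, and DESeq2 gave it an adjusted p of 0.032. Cenpe, the kinesin that carries chromosomes to the spindle equator, had 35.8, 27.4 and 50.1 CPM at 12 h and 18.8, 12.9 and 13.1 CPM at 24 h, a log2 fold change of -1.33 ± 0.38 (SE), or -1.25 without the December mouse. Members named here beyond Kif23 and the 4 of highest mean CPM (Mki67, Top2a, Cenpf and Tpx2) were picked for their values. Aurka, the kinase of the centrosome, had 16.4, 16.9 and 23.7 CPM at 12 h and 6.70, 10.7 and 8.41 CPM at 24 h. Cenpf, of the outer kinetochore, had 51.8, 76.7 and 75.1 CPM at 12 h and 34.4, 30.1 and 43.7 CPM at 24 h. Its December mouse was the highest of 24 h, and the log2 fold change of -0.91 was -1.07 without it. Ccnb1, the cyclin that starts mitosis, had 25.6 to 32.0 CPM at 12 h and 12.5 to 23.1 CPM at 24 h. Mki67, the Ki-67 protein of dividing cells, had 219, 220 and 218 CPM at 12 h and 199, 140 and 102 CPM at 24 h, a log2 fold change of -0.57, or -0.37 without the December library. Top2a, the topoisomerase of S phase to mitosis, overlapped (128 to 178 and 79.2 to 149 CPM). Ttk, a checkpoint kinase, was the single member with a log2 fold change above 0 (0.02), and it was 0.27 without the December library. The list median was -0.56 and -0.46 without the December library. Over every alternative on counts it ran from -0.75 to -0.46, and on log2(TPM + 1) it was -0.77.

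**Figure D3:**
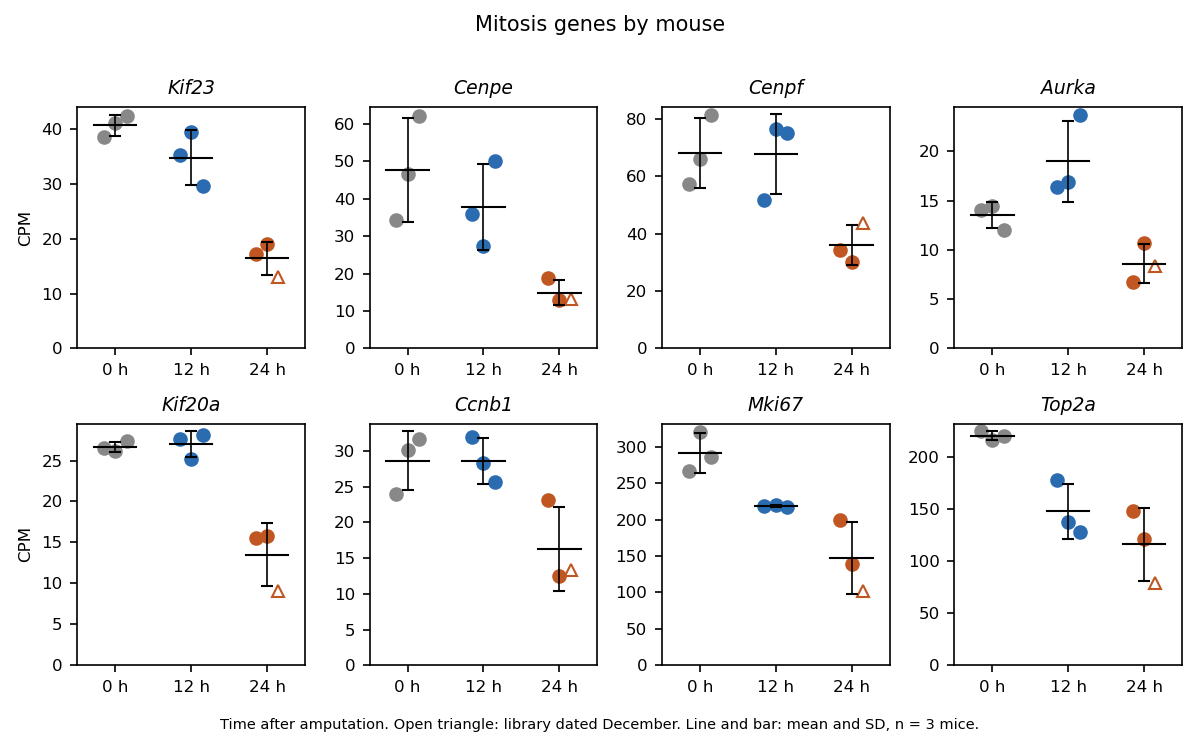
CPM of 8 mitosis genes (y axes, from 0) in each mouse at 0 h, 12 h and 24 h (x axes). Points are mice, the open triangle is the December library, and lines and bars are the mean and SD of 3 mice. In every panel but that of Top2a each mouse at 24 h lies below each at 12 h. The 8 genes were chosen from the 28 mitosis genes tested, of which 14 lay below without overlap.

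The promoters of mitosis genes are known for CCAAT boxes, which NF-Y binds, and for the cell-cycle homology region TTTGAA. Both were searched on both strands over the 250 bases before the start, and matches of one can share at most 1 letter with matches of the other. Of the 28 genes, 24 had a RefSeq promoter in the table, and 20 of these held CCAAT and 10 held TTTGAA, 9 of them both. Over the 10365 genes tested with a promoter the shares were 40.1% and 13.1%. For the DNA replication list 16 and 4 of 25 genes held them. These windows of GRCm38.p6 are shown because their genes were low together at 24 h, and capitals mark the matches on either strand:
Kif23 (chr9:61946800-61946899, minus strand): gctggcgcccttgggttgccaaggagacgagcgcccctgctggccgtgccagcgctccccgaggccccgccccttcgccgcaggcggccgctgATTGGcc
Aurka (chr2:172370571-172370670, minus strand): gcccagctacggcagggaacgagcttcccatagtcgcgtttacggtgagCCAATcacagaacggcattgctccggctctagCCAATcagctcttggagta
Cenpf (chr1:189688133-189688232, minus strand): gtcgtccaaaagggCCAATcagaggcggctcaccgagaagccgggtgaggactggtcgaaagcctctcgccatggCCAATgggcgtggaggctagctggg
Ccnb1 (chr13:100786529-100786628, minus strand): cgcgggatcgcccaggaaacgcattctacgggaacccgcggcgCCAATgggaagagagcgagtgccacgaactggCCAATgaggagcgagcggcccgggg
Mki67 (chr7:135716452-135716551, minus strand): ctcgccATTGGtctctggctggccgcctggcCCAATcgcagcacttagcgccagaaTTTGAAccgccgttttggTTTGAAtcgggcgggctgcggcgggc
Cdc20 (chr4:118437344-118437443, minus strand): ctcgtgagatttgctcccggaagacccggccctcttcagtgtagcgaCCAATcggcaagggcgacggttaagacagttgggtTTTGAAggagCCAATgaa

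In these windows Kif23, Aurka, Cenpf and Ccnb1 showed CCAAT and no TTTGAA, while Cdc20 and Mki67 showed both. The genes were chosen, and whether the motifs go with the size of the difference was not tested. Cdc20, the activator of the anaphase-promoting complex, had 24.1, 27.9 and 16.5 CPM at 12 h and 17.4, 12.9 and 11.5 CPM at 24 h, which overlap by 1 mouse.

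Genes of DNA replication did not share the direction of the mitosis genes. Of 32 tested, 22 had a positive log2 fold change, 1 was higher without overlap and 1 lower. The list median was 0.32. Without the December library it was 0.51, with 10 genes above and 2 below, but without the first August mouse it was -0.07, so that its direction rests on single mice. The summed level was 738, 621 and 661 CPM at 12 h and 975, 730 and 541 CPM at 24 h, with the December mouse the lowest of the 6 and an August mouse the highest. Mcm4, a subunit of the replicative helicase, shows the same order. It had 35.7, 34.1 and 33.0 CPM at 12 h and 46.9, 56.8 and 19.4 CPM at 24 h. Pcna, the sliding clamp, had 72.8, 62.2 and 47.9 CPM at 12 h and 86.3, 75.1 and 71.7 CPM at 24 h, and Rrm1, of ribonucleotide reductase, 94.6 to 124 and 53.3 to 124 CPM. E2f1, the transcription factor of S phase entry, was the lower non-overlapping member (log2 fold change -0.60, or -0.38 without the December library). The difference between the mitosis and replication lists was not tested.

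Few genes of p53 and of cell-cycle arrest were without overlap. Ccng1, cyclin G1, a target of p53, had 175, 160 and 165 CPM at 12 h and 102, 80.4 and 67.3 CPM at 24 h, with 53.4 to 77.6 CPM at 0 h. Its log2 fold change was -1.0 ± 0.24 (SE, unadjusted p = 0.00024, adjusted p = 0.26), or -0.87 without the December mouse. The 12 h mice lay close together and far above the others. Cdkn1a, which encodes the inhibitor p21, had 198, 190 and 169 CPM at 12 h and 131, 122 and 157 CPM at 24 h, without overlap. Mdm2, another p53 target, had 109 to 125 and 96.3 to 125 CPM. Of the 18 members 2 were lower without overlap and 0 higher, beside 6.82% and 6.28% of all genes. The log2 fold change was positive in 7 and negative in 11. The list median was -0.09, or -0.28 without the December library. In that case 5 genes were below and 0 above, for 12.2% and 12.4% over all genes. The summed level was 1314, 1316 and 1265 CPM at 12 h and 1037, 1059 and 1181 CPM at 24 h, without overlap. Ccng1 and Cdkn1a are part of these sums.

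Clock genes differed in both directions. The hours of day at which the mice were operated on and collected are not given in the sources used here. Of 21 clock genes, 5 were higher and 3 lower without overlap. Bhlhe40, a repressor of the clock that hypoxia also induces, had 126, 144 and 133 CPM at 12 h and 266, 231 and 245 CPM at 24 h. In the fit it had a log2 fold change of 0.88 ± 0.26 (SE, unadjusted p = 0.0019, adjusted p = 0.36) and 0.89 without the December library. Nr1d1, the repressor REV-ERB alpha, had 57.3, 37.0 and 65.1 CPM at 12 h and 71.3, 88.1 and 131 CPM at 24 h. Dbp, an output gene of the clock, had 17.2 to 24.1 CPM at 12 h and 30.1 to 35.2 CPM at 24 h. Both were higher in each mouse, as were Nr1d2 and Npas2. Per3 and Csnk1d were among the lower members. The list median was 0.28, and 0.23 without the December library, when 6 genes were above and 3 below. Tsc22d3, which encodes GILZ and is induced by glucocorticoids, had 192, 246 and 158 CPM at 12 h and 102, 86.1 and 105 CPM at 24 h, with 67.3 to 164 CPM at 0 h. The log2 fold change was -1.03 ± 0.32 (SE, adjusted p = 0.39), or -1.08 without the December mouse. Fkbp5, another such gene, had 34.2 to 46.2 CPM at 12 h and 28.3 to 32.3 CPM at 24 h. With Cdkn1a these were the 3 lower non-overlapping genes of 14 in the glucocorticoid and metallothionein list, in which 0 were higher. The median of that list was -0.03, or 0.04 without the December library, when 4 genes were above and 5 below.

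Hypoxia and glycolysis genes had mostly positive log2 fold changes. Of 34, 30 had a positive log2 fold change, and 6 were higher without overlap and 0 lower, beside 6.28% and 6.82% of all genes. The median was 0.20 (0.19 without the December library), and -0.05 on log2(TPM + 1), where all genes are at -0.20. Without the December library 11 genes were above and 0 below, for 12.4% and 12.2% over all genes. Slc16a1, the lactate transporter MCT1, had 95.1, 103 and 76.3 CPM at 12 h and 179, 175 and 129 CPM at 24 h, a log2 fold change of 0.82 ± 0.27 (SE, unadjusted p = 0.0056, adjusted p = 0.43), or 0.95 without the December mouse. Gapdh, of glycolysis, had 539, 622 and 558 CPM at 12 h and 631, 820 and 633 CPM at 24 h. Egln3, a prolyl hydroxylase that HIF induces, had 103 to 122 and 138 to 166 CPM. Pfkfb4 went the other way by its value (log2 fold change -0.90, or -0.84 without the December library), with overlap. Sod2, the superoxide dismutase of mitochondria and an NF-kB target, had 139, 135 and 167 CPM at 12 h and 190, 250 and 172 CPM at 24 h. It was the single higher non-overlapping gene of 15 in the oxidative stress list. Immediate early genes are those that growth signals switch on within minutes. Fosb had 223 to 435 CPM at 0 h, 5.50 to 7.58 CPM at 12 h and 7.06 to 31.1 CPM at 24 h. Junb, a subunit of AP-1, had 58.9, 87.0 and 58.0 CPM at 12 h and 117, 105 and 130 CPM at 24 h, a log2 fold change of 0.79 ± 0.28 (SE, adjusted p = 0.46), or 0.71 without the December mouse. Of the 23 in that list 2 were higher without overlap and 0 lower, with a median of 0.08, or 0.21 without the December library.

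Neither epidermal list had a gene without overlap. The keratins of activated keratinocytes, Krt6a and Krt16, had 1888 to 3691 and 1512 to 3102 CPM at 12 h and 1730 to 2599 and 1103 to 2127 CPM at 24 h. None of the 23 genes of wound keratins and migrating epidermis was without overlap in either direction, but 19 of them had a negative log2 fold change. The median was -0.22, or -0.23 without the December library, when 0 genes were above and 2 below. Of 26 barrier genes, 0 were without overlap. Their median was 0.02, or -0.11 without the December library, when 1 gene was above and 4 below. Krt10, the keratin of differentiated layers, had 16781 to 21646 CPM at 12 h and 15805 to 20460 CPM at 24 h.

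Connective tissue and bone markers lay lower in part. Of 11 fibroblast markers 3 were lower without overlap and 0 higher, with a median of -0.44 that was -0.19 without the December library. Dcn, the collagen-binding decorin, had 750, 761 and 629 CPM at 12 h and 522, 500.1 and 480.0 CPM at 24 h. Mfap5, of elastic microfibrils, had 28.5 to 39.5 CPM at 12 h and 13.6 to 28 CPM at 24 h, and the December mouse was the highest of 24 h there. The collagens overlapped in all 21 genes. Col1a1 had 1218 to 2035 CPM at 12 h and 1550, 1081 and 602 CPM at 24 h, with the December mouse the lowest, and the collagen median of -0.26 was -0.03 without it. Bglap2 encodes osteocalcin, a protein of bone matrix, and Bglap3, a related gene, was not on the marker list. Bglap2 had 10.9, 11.6 and 3.78 CPM at 12 h and 1.56, 1.10 and 0 CPM at 24 h, a log2 fold change of -3.17 ± 0.81 (SE, adjusted p = 0.28 in edgeR and 0.018 in DESeq2), or -2.71 without the December mouse. Bglap3 had 10.8, 7.98 and 13.4 CPM at 12 h and 1.09, 4.08 and 1.40 CPM at 24 h. Bglap, Bglap2 and Bglap3 are near-identical copies between which RSEM splits reads, so the share of each is uncertain. Bglap, which was on the marker list, was not among the genes without overlap. Dmp1, a matrix protein of osteocytes, had 33.6, 53.8 and 33.3 CPM at 12 h and 19.0, 29.2 and 11.9 CPM at 24 h. Ibsp differed in the other direction, with 104, 115 and 105 CPM at 12 h and 162, 122 and 126 CPM at 24 h. Alpl, the alkaline phosphatase of mineralising cells, had 18.5, 34.6 and 15.5 CPM at 12 h and 49.5, 51.0 and 10.3 CPM at 24 h, so that the August mice were high and the December mouse low. Over the 12 bone markers the median was -0.64, with Ibsp above and Bglap2 and Dmp1 below. The median was -0.31 without the December library, with 2 genes above and 2 below.

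Keratin-associated proteins were not on a list, and the family was chosen after its values were seen. They are small proteins rich in cysteine or in glycine and tyrosine that cross-link the keratins of hair and nail. Of 46 such genes in the files 37 were tested, and 27 of these had all mice at 24 h above all at 12 h, with 0 below and 36 positive log2 fold changes. Without the December library the count was again 27. Their summed level was 4749, 4065 and 7802 CPM at 12 h and 14162, 11521 and 20732 CPM at 24 h, with 4457 to 9293 CPM at 0 h. The median log2 fold change was 1.57, and 1.34 without the December library, which was the highest mouse. Krtap21-1, the most abundant, had 1593, 1113 and 2247 CPM at 12 h and 4462, 3759 and 7509 CPM at 24 h. The log2 fold change of the gene was 1.67 ± 0.63 (SE, unadjusted p = 0.013, adjusted p = 0.48), or 1.32 without the December mouse. Krtap4-16 had 15.7, 19.2 and 32.3 CPM at 12 h and 145, 75 and 132 CPM at 24 h, and Krtap9-3 had 76.2, 81.9 and 114 CPM at 12 h and 290, 245 and 236 CPM at 24 h. With Krtap4-1 and Gm11563 these were the 4 genes called by the fit of the 6 mice alone, in which the other times do not enter the estimate of the spread. The genes of this family lie in clusters, resemble each other closely and share reads, so they are not independent. The nail and hair keratins, which are cross-linked by these proteins, had smaller log2 fold changes. Of the 15 tested 1 was higher without overlap, Krt34, with 223, 254 and 549 CPM at 12 h and 928, 586 and 863 CPM at 24 h, and the median was 0.18, or 0.24 without the December library. The transcription factors of that list, such as Foxn1 and Hoxc13, and the keratins did not otherwise separate the groups.

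**Figure D4:**
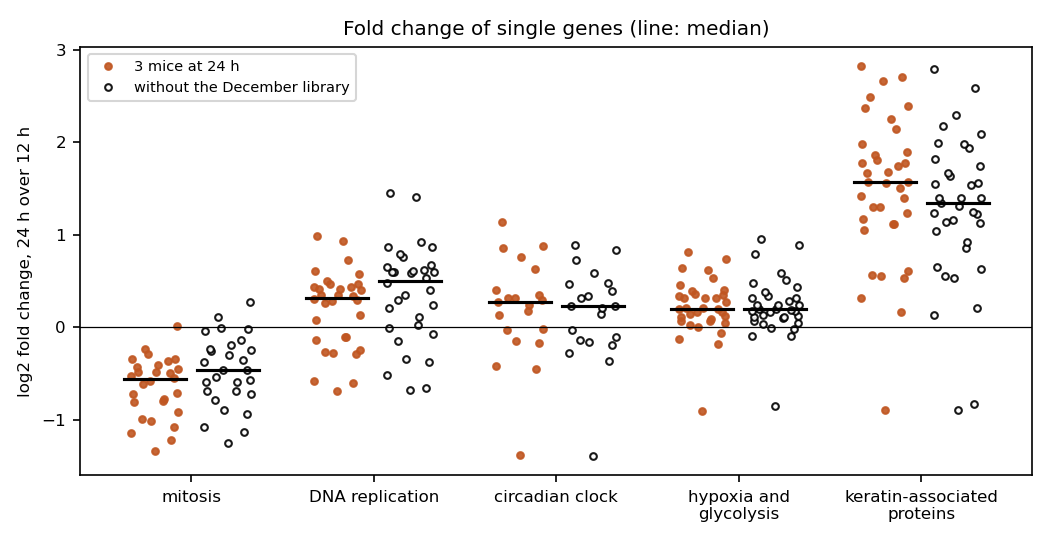
log2 fold change of 24 h over 12 h (y axis) of each gene tested in 5 gene groups (x axis), with 3 mice at 24 h (filled) and without the December library (open). Horizontal bars are medians. With 3 mice at 24 h, mitosis genes lie below 0 except Ttk at 0.02, and keratin-associated protein genes have medians of 1.57 and 1.34.

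The genes of lowest unadjusted p that reached 5 CPM and did not overlap, 10 in each direction, were mostly of other kinds. On the higher side, Cox5b, a subunit of cytochrome c oxidase, had the lowest p of all genes (chr1:36691449-36693681 on GRCm38, plus strand). It had 52.7, 38.2 and 39.2 CPM at 12 h and 90.8, 100.4 and 141 CPM at 24 h, a log2 fold change of 1.35 ± 0.26 (SE, unadjusted p = 2.0e-05, adjusted p = 0.18), and 1.14 without the December library. Clpx, the ATPase of a matrix protease, had 55.6 to 74.6 CPM at 12 h and 92.8 to 120 CPM at 24 h. Ndufb2, a subunit of complex I, rested on the December mouse. It had 7.86, 11.1 and 11.3 CPM at 12 h and 13.2, 21.3 and 72.9 CPM at 24 h, and its log2 fold change of 1.82 was 0.78 without that mouse. Apopt1, a mitochondrial protein, did too, with 12.5 to 21.0 CPM at 12 h and 27.9, 31.7 and 103 CPM at 24 h. Slc25a16, a mitochondrial carrier, had 13.8 to 20.4 and 27.6 to 35.8 CPM. Bag4, a partner of Hsp70 that binds death receptors, was steadier. It had 46.3, 37.9 and 41.6 CPM at 12 h and 68.1, 69.8 and 76.9 CPM at 24 h, and its log2 fold change of 0.77 ± 0.16 (SE) was 0.72 without the December library. Pdzrn3, a ubiquitin ligase, had 17.2, 18.5 and 22.5 CPM at 12 h and 39.4, 58.6 and 40.4 CPM at 24 h. The December mouse lay between the August mice, and the log2 fold change was 1.25, or 1.34 without it. Hist1h1c, a linker histone, had 39.7 to 57.8 CPM at 12 h and 82.7 to 137 CPM at 24 h. Rpl13, of the large ribosomal subunit, had 194 to 215 and 346 to 723 CPM, and Ccdc61, a centrosomal protein, 6.53 to 8.82 and 16.2 to 17.4 CPM. Short transcripts were frequent on this side. The median length of the 10 was 1791 bases, against 3009.5 bases for all genes tested. Of 82 subunit genes of the respiratory chain, a set added after the values were seen, 10 were higher without overlap and the median was 0.41. The median was 0.07 without the December library, with 12 above and 3 below. For 80 ribosomal protein genes the median was 0.49 and -0.03 without it.

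On the lower side, Tyk2, the kinase of receptors for type I interferon and interleukins 12 and 23, had 25.9, 21.6 and 27.0 CPM at 12 h and 7.79, 11.4 and 4.91 CPM at 24 h (chr9:21104068-21131243 on GRCm38, minus strand). Its log2 fold change was -1.61 ± 0.34 (SE, unadjusted p = 6.5e-05, adjusted p = 0.18) and -1.37 without the December library. Irf3, the transcription factor that starts the interferon response to foreign nucleic acid, had 38.7, 38.1 and 39.3 CPM at 12 h and 19.2, 22.9 and 14.5 CPM at 24 h. At 0 h it had 23.5 to 34.4 CPM, so that the 12 h mice stood above both. The genes that interferon induces gave no common direction over the 3 mice at 24 h. Of 21 tested, 2 were higher and 1 lower without overlap, with a median of -0.06, or 0.10 without the December library. In that case 6 were above and 2 below, for 12.4% and 12.2% over all genes. Adamts10, a protease of fibrillin fibrils, had 21.0, 33.9 and 33.5 CPM at 12 h and 15, 14.1 and 6.31 CPM at 24 h. Unc13d, needed for the release of granules from immune cells, had 11.3, 2.18 and 11.0 CPM at 12 h and 1.25, 1.72 and 1.17 CPM at 24 h. The second mouse at 12 h was close to those of 24 h. Mbd4, a glycosylase that repairs mismatched thymine, had 12.8 to 16.1 CPM at 12 h and 3.74 to 7.06 CPM at 24 h. Amdhd2, an enzyme of amino sugar metabolism, had 9.65, 11.6 and 10.8 CPM at 12 h and 4.83, 3.45 and 2.80 CPM at 24 h. It was the single gene called by limma on log2(TPM + 1), with an adjusted p of 0.039, and DESeq2 gave 0.018. Prpf40b, of the spliceosome, had 27.8 to 32.1 and 11.5 to 14.3 CPM. Kif23, Bglap3 and Ccng1, described above, complete the 10. Of the 20 genes on both sides, 18 passed an adjusted p of 0.05 in DESeq2's test and 0 in edgeR's. Under the alternatives 0 reversed, which their choice by low p and lack of overlap in these mice largely fixed. The median transcript length on the lower side was 3455 bases.

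**Figure D5:**
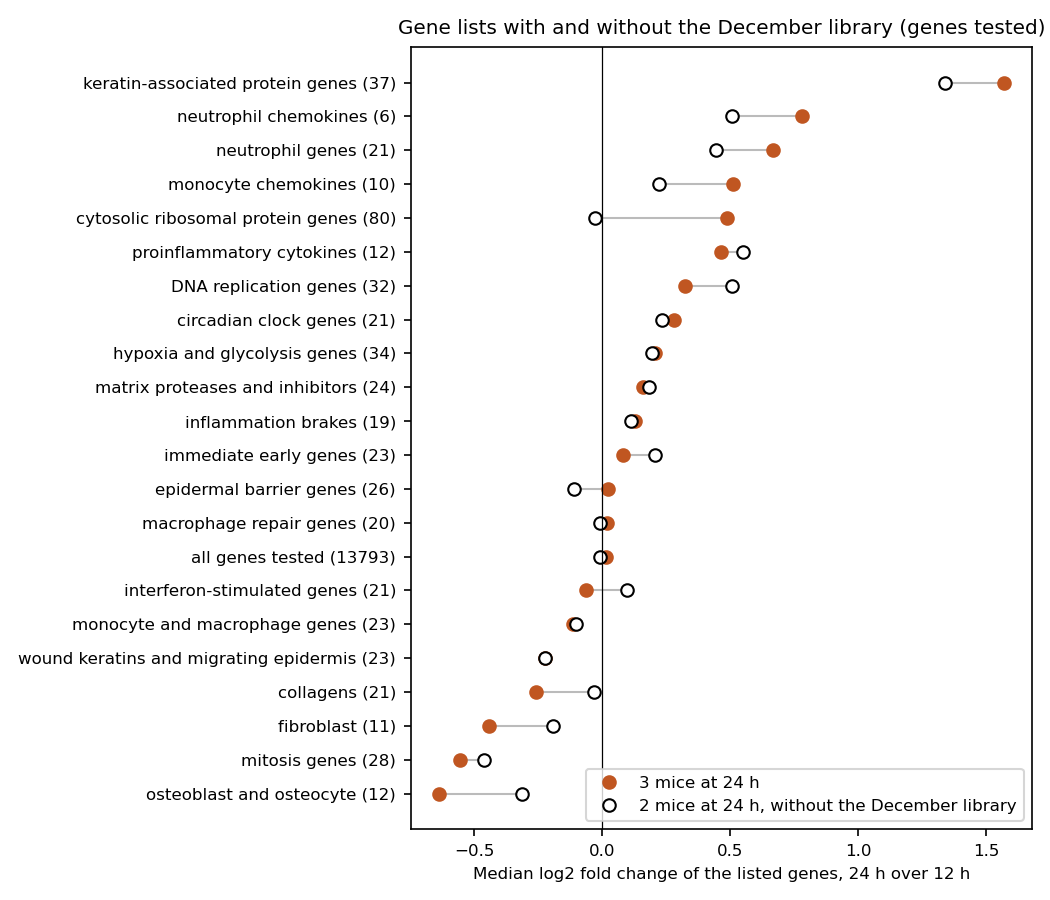
Median log2 fold change of 24 h over 12 h (x axis) for 21 gene lists and all genes tested (y axis, with the number of genes tested). Filled points use 3 mice at 24 h and open points leave out the December library. The ribosomal protein genes move from 0.49 to -0.03, while mitosis genes stay below -0.4 and keratin-associated protein genes above 1.3.

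The lists not described so far had few genes apart when all 3 mice at 24 h were counted. Heat shock and chaperone genes had a median of -0.19 with 1 higher and 2 lower of 24 without overlap. Ribosome assembly genes had -0.05 with 1 higher and 2 lower of 28, EGF receptor ligands and their feedback genes -0.12 with 1 higher and 2 lower of 18, and genes of TGF-beta and provisional matrix 0.04 with 0 higher and 1 lower of 23. Other chemokines had 0.35 with 0 higher and 2 lower of 12, and eicosanoid enzymes -0.23 with 2 higher and 1 lower of 13. Without the December library these 6 medians were -0.15, -0.05, -0.16, 0.06, 0.10 and -0.10 in the same order. In that case heat shock and chaperone genes had 2 above and 7 below, for 12.4% and 12.2% over all genes. The EGF receptor list had 1 above and 4 below, and eicosanoid enzymes 3 and 3. Ribosome assembly genes had 2 and 2, TGF-beta and provisional matrix 3 and 1, and other chemokines 1 and 2. Of the genes of these lists, Dusp4, a phosphatase of ERK, had 1.10, 3.44 and 0.86 CPM at 12 h and 4.83, 5.33 and 8.88 CPM at 24 h. Cxcl14, a chemokine of epidermis, had 75.1, 145 and 116 CPM at 12 h and 268, 206 and 139 CPM at 24 h, and the December mouse overlapped with 12 h. The marker lists of keratinocytes, osteoclasts, cartilage, smooth muscle, skeletal muscle, Schwann cells, adipocytes, melanocytes, T cells, B cells, mast cells, Langerhans cells, erythroid cells, platelets and sweat glands each had at most 2 genes higher and at most 1 lower without overlap.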

How the data were processed

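Poly(A) RNA of 30 mice was sequenced by ligation-mediated libraries with reads of 65 bases. The authors mapped reads to Ensembl genes of mm10 with Bowtie and deposited, per gene and mouse, expected counts from RSEM 1.2.3 without normalization and TPM, a level per transcript length that sums to the same total in each mouse. The submitters' processing notes also name CASAVA 1.8.2. The deposited average TPM per time point were not used. Of the expected counts, 78.1% were whole numbers.

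Expected counts were rounded and tested with edgeR 4.0.16 in R 4.3.3 (TMM, its filter on low counts with the 9 times as groups, quasi-likelihood test of 24 h against 12 h, Benjamini-Hochberg adjustment at 0.05). All 30 mice were in 1 fit without covariates, so that all times share an estimate of the spread. This kept 13793 of 20321 genes, which hold 99.9% of the counts. CPM are TMM-scaled, and SD and ranges are over mice. By the study's methods each sample is a separate mouse. A 0 h and a 12 h title share a tag and date, which those methods do not explain, and no pairing was assumed. Pairs of mice at a time point differed by more than sampling noise. At totals of 4843416 to 6776238, counts of 3 or less per mouse were treated as the floor of what this depth can show, for counting error only.

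Named genes are the 15 most changed in each direction with an adjusted p under 0.05, at least 5 CPM and groups without overlap. Where fewer than 10 qualified, the list was filled to 10 by lowest unadjusted p under the other conditions, which here gave all 20. From each of 46 gene lists, which hold 685 genes tested, up to 4 genes of highest mean CPM were added, and further members are named for their values. A few genes are not reported here. The comparison, the lists and the tests were chosen with earlier results of these data known. Lists are described by counts and medians and were not tested. Of the genes tested, 99.5% had a transcript length (GENCODE M21 on GRCm38).

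Alternatives were DESeq2 1.42.0 (size factors, and its own test), other filters, a threshold of 0.01, a fit of the 6 mice, the sampling campaign as a covariate, July to August mice only, limma 3.58.1 on log2(TPM + a pseudocount of 1 or 0.1), and each mouse left out. List medians under these settings, and counts without the December library, were added after seeing the data. The fits were tested on simulated data. Python 3.11.15 with pandas 2.3.3 and matplotlib 3.10.9 gave the summaries and plots.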

Additional observations from a re-analysis of the deposited data

How the results depend on the processing

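Under edgeR no alternative on all 30 mice gave a gene past an adjusted p of 0.05, and at 0.01 the count was 0 as well. DESeq2's test gave 26 genes, 12 higher and 14 lower, the fit of the 6 mice alone gave 4, of which 4 higher, and limma gave 1 lower gene at either pseudocount, 1 in all. The cause of these differences was not tested. With each of the 6 mice left out in turn the counts ran from 0 to 0, and genes at an unadjusted p under 0.05 from 752 without the December library to 1362 without the first August mouse. Of 300 values for the 20 named genes under the alternatives, 280 kept their direction and side of the threshold, 20 kept their direction and passed the threshold, and 0 reversed. The 20 genes were picked from these same mice for low p and groups without overlap. Leaving out a mouse could therefore hardly reverse them, and these counts do not measure how stable the genes are. Of 405 list medians 349 moved by less than 1 SD of the list's mean level over mice, and 56 moved by more. The SD was the larger of those at 12 h and at 24 h, and the December mouse enters the latter and can widen it. By this measure the DNA replication median moved in 0 settings, though its sign changed in 1. In 13 of 27 lists the median had a single sign throughout. The mitosis median ran from -0.75 to -0.46 on counts, that of neutrophil genes from 0.42 to 1.1, and that of DNA replication genes from -0.07 to 0.51. No paired analysis was possible because the labels give the mice of these times no shared replicate numbers.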
